A study of Rattus norvegicus with 20 samples.

Results

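The genes described here encode the subunits of the proteasome, its activators and assembly chaperones, and the subunits of the COP9 signalosome. They were measured in cancers and normal tissue of the mammary gland of irradiated rats. They were chosen by name: a probe belonged if its RefSeq accession maps to a symbol that starts with Psma to Psmg and a number, or with Cops and a number. This gave 43 probes for 39 genes, among 36043 genes tested on the array, and all 39 were well above background on all 20 arrays. Of these, 37 are subunits, activators or chaperones: 29 of the constitutive proteasome, 3 of the immunoproteasome and 5 of the signalosome. The other 2, Psmc3ip and Psme3ip1, encode proteins named after a subunit they bind, and are kept apart. RefSeq lists 19 more protein-coding genes of these names for which no probe was named here, Psmb5 among them.

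Total RNA had been labelled with Cy3 and hybridised to Agilent microarrays of the rat genome, each holding a single sample and dye. Per the labels, the animals were female Jcl:SD rats that received 4 Gy of whole-body gamma rays from Cs-137 at 7 weeks of age and then stayed on their diet for 30 weeks. The cancers were 6 samples of obesity-prone (OP), 3 of obesity-resistant (OR) and 3 of lean control (LC) rats, and the normal mammary tissues 3 OP, 2 OR and 3 LC samples of age-matched rats. Whether each sample had its own animal is not stated throughout, and the p-values therefore reflect only how these samples spread, which may be partly technical. OP and OR rats both ate food with 45 kcal% fat and were split by body weight at irradiation. LC rats ate 10 kcal% fat, so OP and LC differ in diet as well as in weight gain. The cancers had been picked for even histology without necrosis or marked infiltration, which limits them as a sample of all tumours. OR and LC cancers together are called lean below.

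The proteasome is the protease that degrades proteins tagged with ubiquitin. Its barrel, the 20S core, has outer rings of alpha subunits that gate the entrance and inner rings of beta subunits, of which Psmb5, Psmb6 and Psmb7 cut peptide bonds. The 19S cap holds ATPases (Psmc genes) that unfold the substrate, and other subunits (Psmd genes) that bind ubiquitin and form the lid. In cells exposed to interferon gamma, Psmb8, Psmb9 and Psmb10 take the places of Psmb5, Psmb6 and Psmb7, and this immunoproteasome makes peptides suited to MHC class I presentation. The COP9 signalosome resembles the 19S lid and removes NEDD8 from cullin ubiquitin ligases, with Cops5 as its catalytic subunit.

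Promoter sequences of 6 genes are shown. They include all the immunoproteasome genes, though Psmb10 was not called different between cancers and normal tissues. The others are the genes with the largest rise in the 19S non-ATPase subunits and the alpha ring, and a signalosome gene. The signalosome gene is the one without overlap between cancers and normal tissues. RefSeq promoters on build GRCr8, 250 bases before to 50 after the start of the gene, were matched by symbol for 35 of the 39 genes; Cops5, Psma7, Psmd12 and Psmd6 were not matched. Each is written 5′ to 3′ on the strand of its gene, with every match to 5 motifs in capitals.
Psmb8, chr20:4656982-4657281, minus strand: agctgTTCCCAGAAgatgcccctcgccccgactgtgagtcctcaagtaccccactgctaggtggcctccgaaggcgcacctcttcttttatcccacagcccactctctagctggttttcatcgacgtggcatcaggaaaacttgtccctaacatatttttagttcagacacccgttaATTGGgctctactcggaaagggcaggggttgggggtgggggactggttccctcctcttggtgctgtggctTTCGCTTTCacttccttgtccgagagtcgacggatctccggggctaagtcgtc
Psmb9, chr20:4668750-4669049, plus strand: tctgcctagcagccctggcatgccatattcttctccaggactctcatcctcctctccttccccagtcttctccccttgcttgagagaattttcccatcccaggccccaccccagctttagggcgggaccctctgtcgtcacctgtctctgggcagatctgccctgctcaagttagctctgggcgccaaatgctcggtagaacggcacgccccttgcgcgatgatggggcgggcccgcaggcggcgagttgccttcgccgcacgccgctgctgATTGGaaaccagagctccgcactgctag
Psmb10, chr19:50743243-50743542, minus strand: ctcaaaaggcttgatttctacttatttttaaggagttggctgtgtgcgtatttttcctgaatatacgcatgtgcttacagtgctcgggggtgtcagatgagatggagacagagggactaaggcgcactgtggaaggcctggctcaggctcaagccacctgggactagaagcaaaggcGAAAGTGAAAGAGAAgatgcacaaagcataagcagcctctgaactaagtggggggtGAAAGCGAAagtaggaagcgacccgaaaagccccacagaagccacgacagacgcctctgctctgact
Psmd3, chr10:84139688-84139987, plus strand: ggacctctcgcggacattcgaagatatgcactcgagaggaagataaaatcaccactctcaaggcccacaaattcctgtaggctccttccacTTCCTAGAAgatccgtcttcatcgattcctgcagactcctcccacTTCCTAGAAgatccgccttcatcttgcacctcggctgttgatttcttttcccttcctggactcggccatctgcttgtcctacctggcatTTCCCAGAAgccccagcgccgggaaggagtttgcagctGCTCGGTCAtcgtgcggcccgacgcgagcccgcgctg
Psma3, chr6:95219499-95219798, plus strand: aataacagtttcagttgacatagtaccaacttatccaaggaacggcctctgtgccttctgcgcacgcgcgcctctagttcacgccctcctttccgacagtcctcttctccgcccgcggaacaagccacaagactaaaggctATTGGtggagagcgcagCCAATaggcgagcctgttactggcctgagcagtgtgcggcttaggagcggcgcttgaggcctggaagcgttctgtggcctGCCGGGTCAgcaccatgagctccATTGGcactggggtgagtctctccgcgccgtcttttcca
Cops4, chr14:9413058-9413357, minus strand: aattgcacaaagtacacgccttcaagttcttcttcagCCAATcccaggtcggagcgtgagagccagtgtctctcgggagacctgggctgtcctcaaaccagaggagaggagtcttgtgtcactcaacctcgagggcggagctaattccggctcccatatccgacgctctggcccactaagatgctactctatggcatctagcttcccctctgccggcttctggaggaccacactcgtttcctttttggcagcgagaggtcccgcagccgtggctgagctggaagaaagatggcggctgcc

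The motifs were searched on either strand, and a match describes letters in this window and shows no bound factor. The antioxidant response element core TGACNNNGC, the kind of site bound by NRF1 and NRF2, lay in 6 of the 35 promoters (17.1%) and in 12.1% of all 33469 promoters; in Psma3 it lies at position -12 and in Psmd3 at 14, counted from the start of the gene. The CCAAT box, bound by NF-Y, lay in 21 of 35 (60.0%) and in 37.5% of all promoters. The interferon-stimulated response element core GAAANNGAA lay in 6 of 35 (17.1%), against 9.71% of all. Psmb10 holds it at -73, -67 and -17, the first pair overlapping each other, and Psmb8 holds it at -3. The gamma-activated site TTCNNNGAA, an element of interferon gamma response genes, lay in Psmb8 (-245) and in Psmd3 (-159, -114 and -25) among the 35 (5.71%), against 8.87% of all. GGGANNNCC, the form bound by NF-kB, lay in 8 of 35 (22.9%), against 18.2% of all, and in none of the 6 printed. Psmb9 and Tap1, a peptide transporter gene of class I presentation, start 457 bases apart on opposite strands, and their promoter windows share 44 bases; Psmb8 lies on the other side of Tap1.

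The tissues differed in cell makeup, which bears on every comparison of cancer with normal tissue. Of the marker lists, all 6 adipocyte, all 5 fibroblast and all 3 endothelial genes were lower in the cancers, and all 7 luminal epithelial and all 7 proliferation genes were higher (limma, adjusted p under 0.05). In such bulk RNA, a change in the share of a cell type and a change of RNA per cell cannot be told apart. Between 61.3% and 79.3% of probes were well above background on cancer arrays, against 87.7% to 97.7% on normal tissue arrays. Of T and NK cell markers, 1 of 7 was higher and 1 lower in the cancers, but they stood on average 2.90 above their mean over the 20 arrays in LC normal tissue 3, where the B cell marker Cd79b stood 5.82 above its own (log2). OP cancer 6 stood 1.47 above that mean for T and NK cell markers and 3.23 above it for skeletal muscle markers, and OR normal tissue 2 and OP cancer 2 stood 2.02 and 1.15 above it for muscle. LC normal tissues 2 and 3 also held 26 of the 29 constitutive proteasome genes above the median of the normal tissues.

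In cancers, 16 of the 37 genes were higher than in normal tissue and 5 were lower (limma, Benjamini-Hochberg adjusted p under 0.05 over all genes), while 29.0% of all genes were higher and 33.5% lower. Their median difference was 0.20 on the log2 scale, and that of the 29 constitutive proteasome genes 0.14, against -0.03 over all genes. Cancers and normal tissues did not overlap for 4 genes, all with the cancers above (Psmd12, Psmd3, Psmd1 and Cops4), and for none with the cancers below; over all genes 8.63% lay wholly above and 11.6% wholly below. The higher count stood at 16 to 18 under every alternative that gave a count, whereas the lower count was 0 when arrays were scaled to their 75th percentile instead of by quantiles. Scaling to the 75th percentile after normexp moved the median of all genes to -0.80 (log2), and on the processed signal, which also changes the background correction, to -1.51; all 5 genes called lower lay above either median. With slide as a block the lower count was 1, and without OR normal tissue 2 it was 3.

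**Figure D1:**
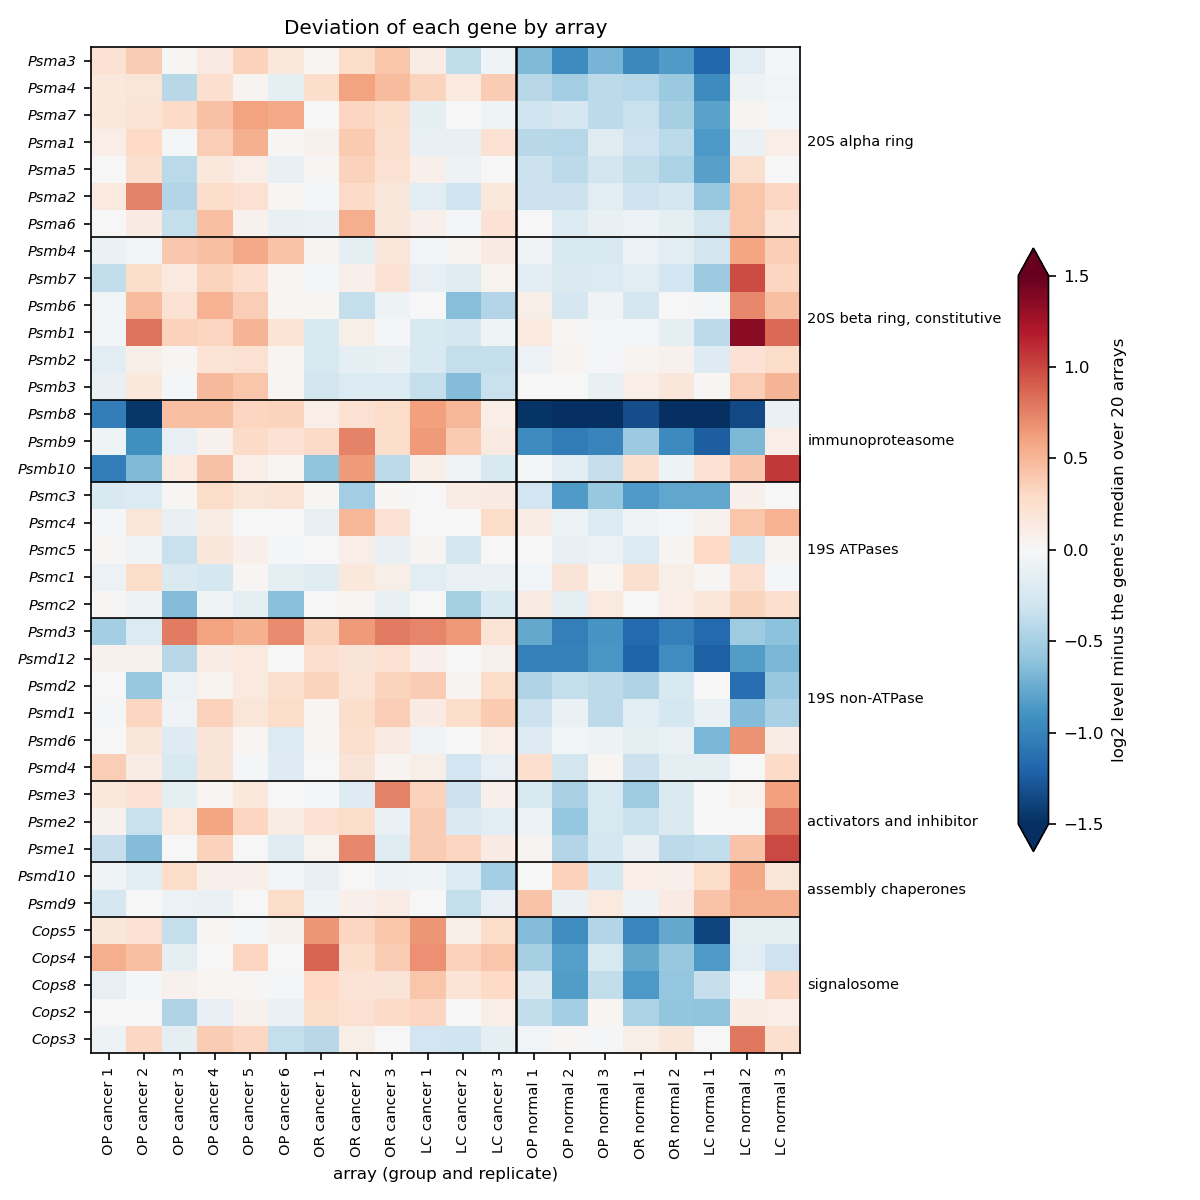
Log2 level of each of the 37 genes on each of the 20 arrays, minus the median of that gene over the arrays; cancers are left of the vertical line and normal tissues right of it, and horizontal lines separate the classes of subunits. The alpha ring, Psmd3, Psmd12 and most signalosome genes are redder in the cancers; OP cancers 1 and 2 are blue for Psmb8, and LC normal tissues 2 and 3 are redder than the other normal tissues for the beta ring.

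**Figure D2:**
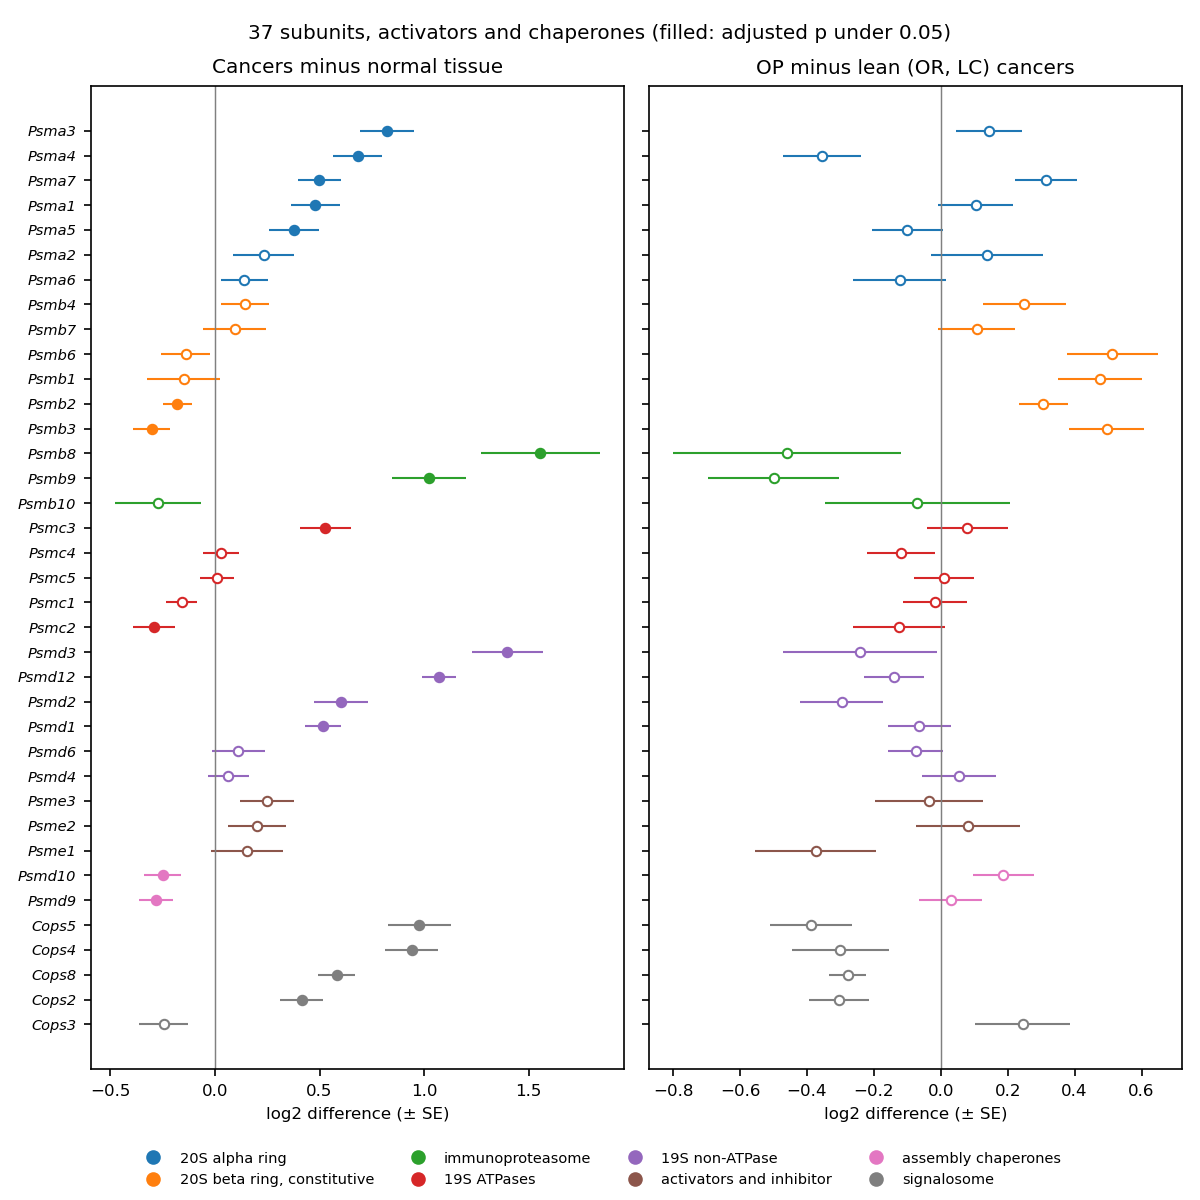
Log2 difference with its standard error for each of the 37 genes, coloured by class, in cancers minus normal tissue on the left and in OP minus lean cancers on the right; filled points have an adjusted p under 0.05 (limma). On the left 16 filled points lie above 0 and 5 below; on the right no point is filled.

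The immunoproteasome genes did not move as a set: Psmb8 and Psmb9 were higher in cancers and Psmb10 was not. Psmb8 ranged from 12.00 to 14.08 (median 13.76) in the 12 cancers, against 11.46 to 13.36 (median 11.96) in the 8 normal tissues (log2 intensity). It was 2.94-fold higher in cancers (log2 difference 1.56 ± 0.28 (SE), adjusted p = 0.00017, limma). OP cancers 1 and 2, at 12.43 and 12.00, lay below LC normal tissue 3, at 13.36, and OP cancer 2 also below OR normal tissue 1 and LC normal tissue 2. The other 10 cancers held 13.56 to 14.08 and the other 7 normal tissues 11.46 to 12.13. Psmb9 ranged from 13.65 to 15.31 (median 14.81) in cancers, against 13.33 to 14.67 (median 13.63) in normal tissues. It was 2.04-fold higher (log2 difference 1.03 ± 0.18 (SE), adjusted p = 0.000107, limma), with OP cancer 2 lowest among cancers and LC normal tissue 3 highest among normal tissues. Psmb10 held 13.17 to 14.84 (median 14.19) in cancers, against 13.85 to 15.27 (median 14.30) in normal tissues, with wide overlap. Its difference of -0.27 ± 0.21 (SE) did not pass (adjusted p = 0.261, limma). Fitted within scan days, the difference of Psmb10 was -0.70 and passed (adjusted p = 0.0169, limma). However, the normal tissues shared their scan day only with OP cancers 1 and 2, OR cancer 1 and LC cancer 1. OP cancers 1 and 2 held the lowest Psmb10 of all cancers.

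The constitutive counterparts of these genes showed no such rise. Psmb6, the counterpart of Psmb9, held 11.14 to 12.31 (median 11.80) in cancers, against 11.53 to 12.51 (median 11.77) in normal tissues, and differed by -0.14 ± 0.12 (SE, adjusted p = 0.314, limma). Psmb7, the counterpart of Psmb10, held 11.08 to 11.79 (median 11.52) in cancers, against 10.91 to 12.44 (median 11.27) in normal tissues, and differed by 0.09 ± 0.15 (SE, adjusted p = 0.609). Psmb5, the counterpart of Psmb8, had no named probe. Differences between Psmb8 or Psmb9 and their counterparts were not tested against each other.

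OP cancers 1 and 2, the low cancers for Psmb8, were also the lowest of the cancers for genes of other roles; this was chosen after the values were seen and is a description only. Psmd3, a structural subunit of the 19S lid, stood at 11.04 and 11.34 in OP cancers 1 and 2, against 11.76 to 12.33 in the other 10 cancers. Psmb10 stood at 13.17 and 13.54 in them, against 13.60 or more in the others, and Psme1, a subunit of the PA28 cap that interferon gamma induces, at 13.03 and 12.72, against 13.19 or more. Outside the proteasome, Tap1 stood at 9.99 and 9.68 in OP cancers 1 and 2, against 11.09 to 12.66 in the other 10. RT1-A2, a rat class I heavy chain, stood at 15.02 and 14.38, against 15.50 to 17.24, and Irf1, a transcription factor of the interferon gamma response, at 8.10 and 8.06, against 8.59 to 9.62. Of the whole lists, OP cancers 1 and 2 had 3 and 2 of 9 class I genes above the median of the cancers, and 2 of 11 interferon gamma signalling genes each; OP cancer 5 and OR cancer 3 likewise had 2 of 9 class I genes above it.

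Slide matters for this pattern, because OP cancers 1 and 2 were hybridised on slides 1 and 2 and OP cancers 3 to 6 on slide 4, which held no other group. Among the OP cancers, slide and this difference cannot be told apart. Slide 1 also held LC cancer 1, in which Psmb8 stood at 14.08, the highest of all 20 arrays. Within slides, the cancer minus normal difference of Psmb8 was 1.52 on slide 1, 0.02 on slide 2, whose single cancer was OP cancer 2, and 1.19 on slide 3. That of Psmb9 was 1.37, -0.17 and 0.90 on slides 1 to 3, and that of Psmd3 1.08, 0.70 and 1.17. With slide as a block over all arrays the differences were 1.25 for Psmb8, 0.90 for Psmb9 and 1.19 for Psmd3.

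**Figure D3:**
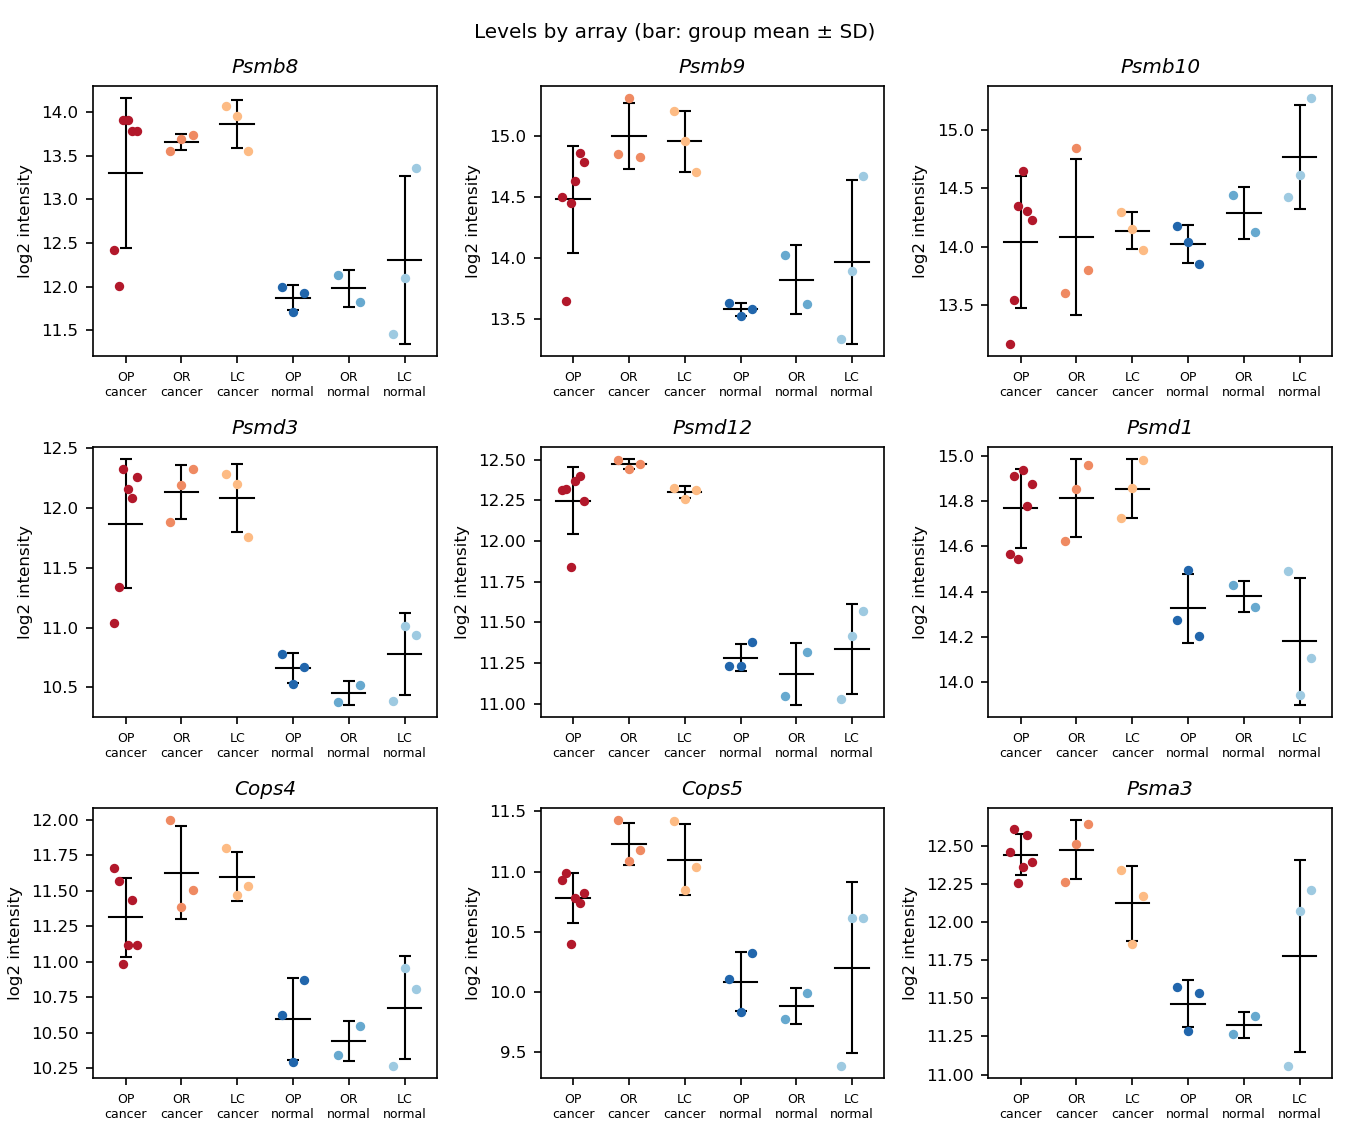
Log2 intensity of 9 genes on each array, by group, with the group mean and SD (n = 6, 3, 3, 3, 2 and 3); each panel has its own axis, and levels are not to be compared between panels. The OP cancers split for Psmb8 and Psmd3, and Psmd12, Psmd3, Psmd1 and Cops4 have all cancers above all normal tissues.

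The class I presentation genes, which carry the immunoproteasome's peptides to the cell surface, gave 6 higher and 1 lower of 9 in cancers, with a median of 0.57 against -0.03 over all genes (log2). Pdia3, which helps fold class I molecules, was 1.51 ± 0.12 (SE) higher, with all 12 cancers (11.73 to 13.03) above all 8 normal tissues (10.79 to 11.38). Tap1 was 1.77 ± 0.33 (SE) higher (adjusted p = 0.000219, limma). Calr, a chaperone of the same complex, was lower by 0.53 (log2 difference -0.53 ± 0.10 (SE), adjusted p = 0.000226). Of 11 genes of interferon gamma signalling 3 were higher and 0 lower, a share near the 29.0% of all genes that were higher, namely Socs1 (0.88 ± 0.14), Cxcl11 (0.49 ± 0.09) and Irf1 (1.01 ± 0.25, SE). Ifng, the cytokine itself, was well above background in 1 of 12 cancers, so its level is only bounded there. T and NK cell markers, of which 1 of 7 was higher and 1 lower, had their highest mean in LC normal tissue 3, and their part in these results was not tested.

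In the alpha ring, 5 of 7 genes were higher in cancers and none was lower, with a median of 0.48 (log2). Psma3 held 11.86 to 12.65 (median 12.38) in cancers, against 11.06 to 12.21 (median 11.46) in normal tissues. It was 1.77-fold higher (log2 difference 0.82 ± 0.13 (SE), adjusted p = 4.03e-05, limma), and only LC normal tissues 2 and 3, at 12.07 and 12.21, reached the range of the cancers. Without LC normal tissue 2 the difference of Psma3 was 0.87, and without 3 it was 0.90. Psma4 was 0.68 ± 0.12 (SE) higher (adjusted p = 0.00011) and Psma7 0.50 ± 0.10 (SE) higher (adjusted p = 0.000515). Psma1 and Psma5 were 0.48 and 0.38 higher, with the ranges of the tissues overlapping for both; Psma5 did not pass under 75th-percentile scaling of the processed signal (0.40, adjusted p = 0.0958). Psma2 (0.23, adjusted p = 0.177) and Psma6 (0.14, adjusted p = 0.294) did not pass; Psma2 passed under 75th-percentile scaling after normexp (0.50, adjusted p = 0.0205), and a second, dimmer probe of Psma6 gave 0.46 ± 0.14 (SE).

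In the constitutive beta ring, none of 6 genes was higher and 2 were lower, with a median of -0.15 (log2). Psmb3, a structural subunit, held 13.43 to 14.56 (median 13.92) in cancers, against 13.96 to 14.59 (median 14.13) in normal tissues. Its log2 difference was -0.30 ± 0.09 (SE, adjusted p = 0.00684, limma), not past the threshold under either 75th-percentile scaling, in the authors' deposited table or with slide as a block. Psmb2, another structural subunit, held 13.27 to 13.86 (median 13.51) in cancers, against 13.43 to 13.91 (median 13.67) in normal tissues. Its difference was -0.18 ± 0.07 (SE, adjusted p = 0.0287, limma), and it was 0.01, the other direction, under 75th-percentile scaling after normexp. The call of Psmb2 was also lost without any of 7 single samples, with adjusted p of 0.0502 to 0.0677. Psmb4 (0.14, adjusted p = 0.288) and Psmb1 (-0.15, adjusted p = 0.4657) did not pass, though Psmb1 was -0.32 (adjusted p = 0.0153) without LC normal tissue 1. The tissues overlapped for all 6 genes.

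Of the 19S cap, the non-ATPase subunits gave 4 of 6 higher and none lower, with a median of 0.56 (log2). Psmd12, a lid subunit, held 11.84 to 12.50 (median 12.32) in cancers, against 11.03 to 11.57 (median 11.28) in normal tissues, with no overlap. It was 2.10-fold higher (log2 difference 1.07 ± 0.08 (SE), adjusted p = 3.16e-08, limma) and had the smallest p of the 37. Psmd3 held 11.04 to 12.33 (median 12.18) in cancers, against 10.38 to 11.02 (median 10.60) in normal tissues, the lowest cancer lying just above the highest normal tissue. It was 2.64-fold higher (log2 difference 1.40 ± 0.17 (SE), adjusted p = 3.27e-06). Psmd1, the large scaffold of the base, held 14.54 to 14.98 (median 14.86) in cancers, against 13.94 to 14.50 (median 14.30) in normal tissues, again without overlap. Its difference was 0.52 ± 0.08 (SE, adjusted p = 6.2e-05). A second, dimmer probe of Psmd1 gave 0.11 ± 0.09 and did not pass (adjusted p = 0.284, limma over probes). On that probe the tissues overlapped, with 11.28 to 11.97 in cancers and 11.06 to 11.60 in normal tissues. Psmd2, the other base scaffold, was 0.60 ± 0.13 (SE) higher on the brighter probe, with overlap, and 1.71 ± 0.18 on the other, without overlap. Psmd6 and Psmd4, a ubiquitin receptor, differed by 0.11 and 0.06 and did not pass.

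The 5 ATPases split. Psmc3 held 12.46 to 13.26 in cancers, against 12.13 to 13.06 in normal tissues, and was 0.53 ± 0.12 (SE) higher (adjusted p = 0.00143, limma). Psmc2 held 12.69 to 13.37 (median 13.25) in cancers, against 13.21 to 13.67 (median 13.48) in normal tissues, and differed by -0.29 ± 0.10 (SE, adjusted p = 0.0169). The call of Psmc2 did not hold within scan days (-0.11, adjusted p = 0.434), with slide as a block, under either 75th-percentile scaling or without OR normal tissue 2. Psmc1 differed by -0.16 (adjusted p = 0.0731; 0.0189 without OP cancer 2), and Psmc4 and Psmc5 by 0.03 and 0.01. A second, dimmer probe of Psmc4 gave 0.23 ± 0.08 (SE) and passed (adjusted p = 0.0165, limma over probes). ATPases of the same ring thus lay on either side of the normal tissue level under quantile scaling.

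None of the 3 PA28 activator genes passed: Psme3 differed by 0.25, Psme2 by 0.20 and Psme1 by 0.15 (adjusted p = 0.102, 0.222 and 0.46, limma; 0 also at an unadjusted p under 0.05). Psme1 and Psme2, which interferon gamma induces together with the immunoproteasome, were highest in LC normal tissue 3 at 14.36 and 13.57. Without that tissue Psme3 (0.31, adjusted p = 0.0374) and Psme2 (0.29, adjusted p = 0.05) came to or past the threshold, and Psme3 passed under 75th-percentile scaling of the processed signal (0.63) and after normexp (0.53). The assembly chaperones Psmd9 (-0.28 ± 0.08, SE, adjusted p = 0.00607) and Psmd10 (-0.25 ± 0.09, adjusted p = 0.021) were lower. Neither passed under either 75th-percentile scaling, and Psmd10 did not with slide, scan day or replicate as a block. Psmd9 held 12.26 to 12.90 in cancers, against 12.52 to 13.17 in normal tissues, and Psmd10 9.44 to 10.22, against 9.68 to 10.51.

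Of the signalosome, 4 of 5 subunits were higher in cancers and none was lower, with a median of 0.58 (log2). Cops4 held 10.98 to 12.00 (median 11.49) in cancers, against 10.27 to 10.96 (median 10.59) in normal tissues, without overlap. It was 1.92-fold higher (log2 difference 0.94 ± 0.13 (SE), adjusted p = 9.88e-06, limma). Cops5, the subunit that cuts NEDD8, held 10.40 to 11.43 (median 10.96) in cancers, against 9.39 to 10.61 (median 10.05) in normal tissues, and was 1.97-fold higher (0.98 ± 0.15, SE). Only LC normal tissues 2 and 3, at 10.61, and OP cancer 3, at 10.40, brought the tissues to overlap, and the difference of Cops5 was 1.05 when either of those normal tissues was left out. Cops8 was 0.58 ± 0.09 (SE) and Cops2 0.41 ± 0.10 higher, Cops2 losing its call under 75th-percentile scaling after normexp (0.11, adjusted p = 0.404). Cops3 differed by -0.25 ± 0.12 (adjusted p = 0.0833), and by -0.31 (adjusted p = 0.0312) without LC normal tissue 1. Of the 2 genes named alike, Psme3ip1 was 0.59 ± 0.11 (SE) higher and Psmc3ip differed by 0.15 (adjusted p = 0.21).

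Genes that act beside these complexes were counted from lists, against 29.0% of all genes higher and 33.5% lower. Of 11 genes of neddylation and cullin ligases, 5 were higher and 0 lower, led by Cand2 (1.46), Skp1 (0.61) and Uba3 (1.26, log2), an exchange factor, an adaptor and the NEDD8-activating enzyme. Of 8 proteasome partners, 5 were higher and 3 lower: among them, the substrate shuttles Rad23b and Ubqln1 were 0.64 and 0.79 higher, and the ubiquitin receptor Adrm1 and the deubiquitinase Usp14 differed by -0.47 and -0.44. Of 8 genes of ubiquitin and its activation, 3 were higher and 0 lower, among them the ubiquitin-activating enzyme Uba1 (0.65). Of the NRF1 axis, through which cells replace lost proteasome, 6 genes were tested, and 4 were higher and 0 lower. Among them were Vcp (0.85) and Nfe2l2 (0.56), the gene of NRF2. Nfe2l1, the gene of NRF1 itself, was not tested, nor were Ddi2, Ufd1l and Syvn1 of that list. For scale, 17 of 64 ribosomal protein genes were higher and 21 lower, and 15 and 20 of 52 genes of oxidative phosphorylation.

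Copies of these genes limit some of the values. RefSeq lists 47 pseudogenes or similar copies named after 16 of the 39 genes, 10 of them after Psmb3 and 5 after Psma6, and a probe may read RNA of such a copy. Psmb8, Psmb9, Psmb10, Psmd3, Cops4 and Cops5 had none. Whether any probe reads a copy was not tested.

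The cancer to normal difference was also taken within each obesity group. In OP rats 14 of the 37 genes were higher and 0 lower (all genes 21.2% and 23.4%), in OR rats 12 and 0 (13.9% and 14.5%), and in LC rats 9 and 8 (19.9% and 23.7%; limma, adjusted p under 0.05). At an unadjusted p under 0.05 the counts in either direction were 15, 17 and 17 of the 37, against 51.8%, 39.8% and 51.3% of all genes. Psmb8 was higher in each, by 1.43 in OP, 1.68 in OR and 1.56 in LC rats, as were Psmb9 (0.90, 1.18 and 0.99), Psmd12 (0.96, 1.29 and 0.96), Psmd3 (1.21, 1.68 and 1.30), Cops4 and Cops5. OP rats had a beta ring median of 0.30 and OR rats one of 0.01; the median of LC rats was -0.58, with 4 of the 6 genes lower. The LC counts rest in part on single LC normal tissues: 5 members were higher and 9 lower without LC normal tissue 1, 7 and 5 without 2, and 10 and 6 without 3, and the beta ring median was -0.81, -0.39 and -0.48. Cell markers also differed among the normal tissues. Luminal markers stood at -2.37, -0.75 and -1.92 in LC normal tissues 1 to 3, against -0.80 to -0.38 in OP and OR normal tissues. Myoepithelial markers stood at -1.24, -0.36 and -1.52, against -0.15 to 0.36 (log2, from their mean over the 20 arrays). On the same measure the beta ring stood at -0.28, 0.66 and 0.42 in LC normal tissues 1 to 3. The part of these markers in the LC values was not tested.

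Whether these differences depend on obesity was tested as an interaction of tissue with OP against lean, and 0 of 37 genes passed (limma, all genes 0%). At an unadjusted p under 0.05 were 4 of the 37, a larger share than the 4.29% of all genes. Without LC normal tissue 1 the interaction had 11 members and 2834 of all genes at that p, and still 0 members passed. The smallest p belonged to beta ring genes: Psmb3 (0.75 ± 0.18, SE, adjusted p = 0.953), Psmb6 (0.72 ± 0.23, adjusted p = 0.9997) and Psmb2 (0.40 ± 0.13, adjusted p = 0.9997). In OP rats Psmb3 averaged 14.23 ± 0.25 in cancers and 14.04 ± 0.07 in normal tissue (SD, n = 6 and 3). In OR rats it averaged 13.85 ± 0.04 in cancers and 14.21 ± 0.05 in normal tissue (SD, n = 3 and 2). In LC rats it averaged 13.63 ± 0.17 in cancers and 14.38 ± 0.25 in normal tissue (SD, n = 3 each).

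Among the cancers alone, 0 of 37 genes passed for OP against lean (limma, all genes 0%). At an unadjusted p under 0.05 were 11 of the 37, a larger share than the 11.4% of all genes. All 6 constitutive beta genes had the OP cancers higher on average, 4 of them at an unadjusted p under 0.05, with a median of 0.39 (log2) against -0.01 over all genes. Taken from the mean over the 20 arrays, the beta ring had medians of 0.19 in OP, -0.16 in OR and -0.22 in LC cancers. Ribosomal protein genes leaned the same way (0.13, -0.13 and -0.10), as did oxidative phosphorylation genes (0.06, -0.03 and -0.08, log2). Psmb3 held 13.96, 14.24, 14.06, 14.56, 14.49 and 14.09 in OP cancers 1 to 6, against 13.80, 13.87 and 13.87 in OR cancers and 13.71, 13.43 and 13.74 in LC cancers. Every OP cancer lay above every lean cancer, with a difference of 0.50 ± 0.11 (SE, unadjusted p = 0.000925, adjusted p = 0.17, limma). The share of all genes without overlap between OP and lean cancers was not counted. Psmb2 held 13.47, 13.72, 13.65, 13.84, 13.86 and 13.66 in OP cancers, against 13.39, 13.50 and 13.52 in OR and 13.40, 13.27 and 13.28 in LC cancers. OP cancer 1 lay below 2 of the OR cancers and the rest lay above all lean cancers (0.31 ± 0.07, SE, adjusted p = 0.19). Psmb6 and Psmb1 differed by 0.51 and 0.48 (adjusted p = 0.226 each), with overlap. Without OP cancer 6, the array high in muscle and T cell markers, 516 of all genes and 0 of the 37 passed; Psmb3 then differed by 0.52 (adjusted p = 0.064), Psmb2 by 0.32 (0.0879) and Cops8 by -0.28 (0.0513).

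The signalosome leaned the other way in the same cancers, with 4 of 5 genes lower on average in OP and 3 at an unadjusted p under 0.05. Cops8 held 9.57, 9.67, 9.76, 9.72, 9.71 and 9.67 in OP cancers, against 9.99, 9.90 and 9.89 in OR and 10.11, 9.89 and 9.99 in LC cancers. Every OP cancer lay below every lean cancer, and the difference of -0.28 ± 0.05 (SE, unadjusted p = 0.000304) had an adjusted p of 0.135 (limma). The share of all genes without such overlap was not counted here either. Cops5 and Cops2 differed by -0.39 and -0.30 (adjusted p = 0.288 and 0.264). Psmb8 and Psmb9 differed by -0.46 ± 0.34 and -0.50 ± 0.20 (SE, adjusted p = 0.64 and 0.381), OP cancers 1 and 2 being the low ones for Psmb8.

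Slide moved with obesity group here, since slide 4 held 4 OP cancers and nothing else and had the lowest shares of probes above background, and slide 5 held 2 OR and 2 LC cancers. With slide as a block, Psmb3 differed by 0.10, Psmb2 by -0.05, the other direction, and Cops8 by -0.52. These values rest on slide 1, the only slide with both OP and lean cancers, and on slide 5, which set OR against LC cancers. Slide 1 held a single OP and a single LC cancer. There Psmb3 stood at 13.96 in OP cancer 1 and 13.71 in LC cancer 1, and Cops8 at 9.57 and 10.11. Psmb2 stood at 13.47 and 13.40 on slide 1, so its other direction came only with the OR and LC cancers of slide 5. With 1 cancer a group on slide 1, the block cannot decide the part of slide in the beta ring pattern, which was not tested.

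**Figure D4:**
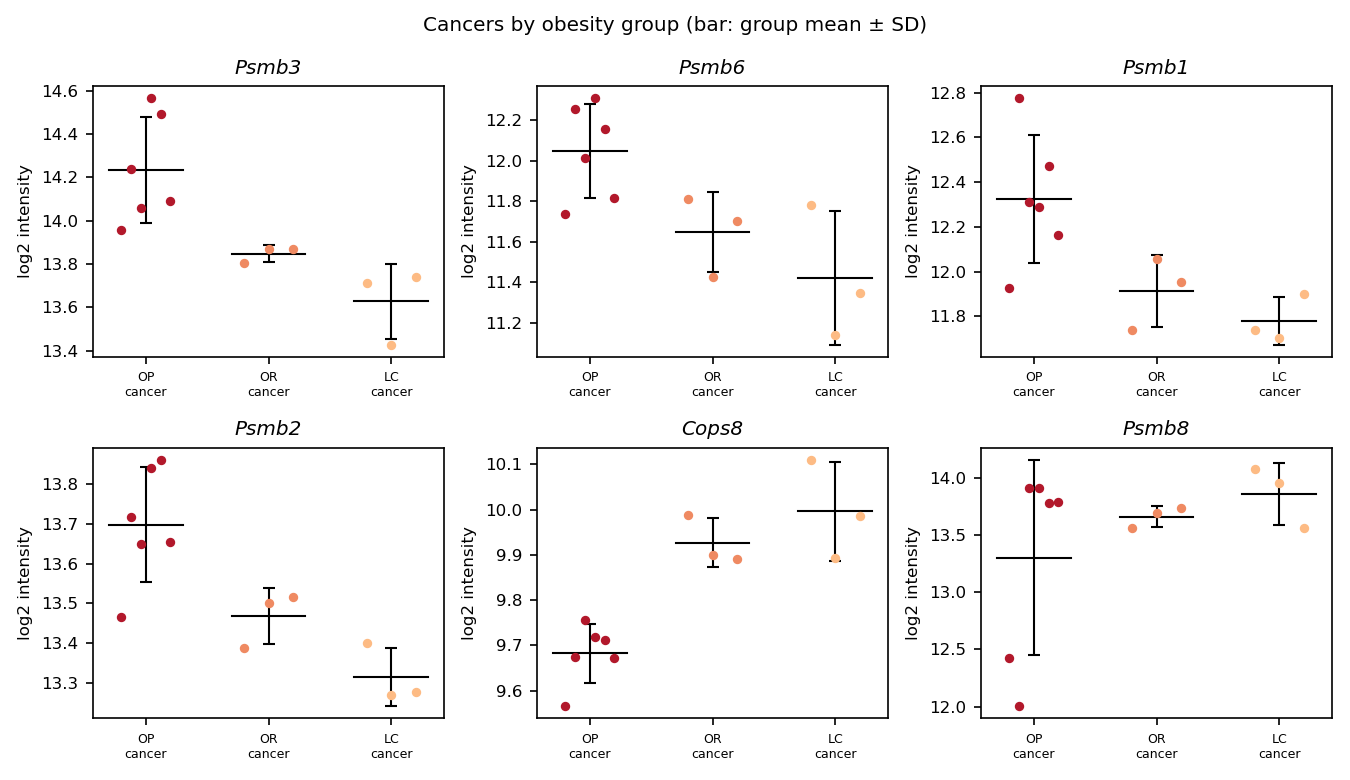
Log2 intensity of 6 genes in the 12 cancers by obesity group, with the group mean and SD (n = 6, 3 and 3); each panel has its own axis. All 6 OP cancers lie above the lean cancers for Psmb3 and below them for Cops8, and 2 OP cancers lie far below the rest for Psmb8. The share of all genes with no such overlap was not counted.

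The finer comparisons also gave 0 of 37 genes (limma; all genes 0% in each). OP against OR cancers had 8 of the 37 at an unadjusted p under 0.05, a larger share than the 10.9% of all genes. The smallest p belonged to Cops8 (-0.24), Cops2 (-0.37) and Cops5 (-0.45), each at an adjusted p of 0.377 (limma). OP against LC cancers had 9 of the 37, again a larger share than the 7.21% of all genes. They were led by Cops8 (-0.31), Psmb3 (0.61) and Psmb2 (0.38), with adjusted p = 0.225, 0.244 and 0.252 (limma). These comparisons share the OP cancers, so their values are not independent. OR against LC cancers, which differ in diet, had 1 of the 37, against 4.19% of all genes. Psma3 differed by 0.35 ± 0.14 (SE, adjusted p = 0.998, limma), Psma7 by 0.26 and Psmd9 by 0.20.

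In normal tissue, 0 of 37 genes passed for OP against lean rats (limma, all genes 0%), and 1 of the 37 had an unadjusted p under 0.05, against 2.18% of all genes. Without LC normal tissue 1 these were 9 of the 37 and 2399 of all genes, with 0 of the 37 passing. Psmb10 held 14.18, 14.04 and 13.85 in OP tissues, against 14.44 and 14.13 in OR and 14.43, 14.61 and 15.27 in LC tissues. Only OP tissue 1 lay above any lean tissue, and the difference was -0.50 ± 0.21 (SE, adjusted p = 1); it was -0.38 without LC normal tissue 3. Psmb3 and Psmc4 differed by -0.26 and -0.21 (adjusted p = 1 each). The number of arrays, 8 here, limits the precision of these values.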

How the data were processed

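The scanner files deposited by the authors give, per the file headers, median spot and local background brightness as intensity, a processed signal (intensity, corrected for background by the scanner software), and flags (other, 0 or 1) for outliers and for being well above background. The file headers name Feature Extraction 9.5.1.1, and the submitters' processing notes name 10.7.3.1. The authors also deposited a value table, in log2 units. Set against the scanner values, its columns follow the log2 of the processed signal after scaling by the 75th percentile and centring each probe (median r 0.9999 over arrays), so that higher means more signal. The design text names RMA, so normexp with an offset of 50 and quantile normalization were used here, on the median spot signal.

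Of 41012 probes, 115 had an outlier flag and 825 reached a level well above background in fewer than 0.5 of each group's arrays; both kinds were dropped. Each gene was read from its brightest probe, genes being named through RefSeq accessions; 30177 probes had no symbol and were tested unnamed. Fits used limma 3.58.1 in R 4.3.3 over all 36043 genes with Benjamini-Hochberg adjustment, on all 20 arrays for cancer against normal (mean of 3 group means each) and for the interaction, and on cancers or normal tissues alone otherwise. Data were simulated with 36043 genes, independent normal noise and only a small part of the genes changed. For cancer against normal, 50.7% of genes changed by 0.5 (log2) and 89.6% of those changed by 1 were recovered. For OP against lean cancers these were 32.8% and 77.6%. In the data 29.0% of genes were higher and 33.5% lower in cancers, so the simulated shares do not carry over to cancer against normal. Motifs and figures were made in Python 3.11.15 with matplotlib 3.10.9.

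The members and lists were chosen with earlier results of these data known. Named genes were Psmb6 to Psmb10, the 3 smallest p in each class and list, and the 3 smallest p of each obesity comparison; other members are given by their values. Same-numbered samples did not deviate together over all genes (40 pairs, r -0.35 to 0.28, median -0.05). No pairing by number was seen, though this check cannot exclude it. Alternatives tried were 75th-percentile scaling, an offset of 16, other filters, the median of probes, slide, scan day or replicate as a block, and leaving out samples. Single values of some listed genes are not reported here.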

Additional observations from a re-analysis of the deposited data

Results flagged for a closer look

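Among the 37 genes in the OP cancers, the only group of 4 to 10 samples, 3 values stood far from the rest of their group. Each gene was looked at once, and chance alone marks about 1 in 20 such looks, so some of 37 genes are marked by chance alone. The share marked over all genes was not counted. Psmb9 in OP cancer 2 was 13.65 (log2), and the nearest other OP cancer held 14.45. Psmd12 in OP cancer 3 was 11.84, the nearest other holding 12.25. Cops2 in OP cancer 3 was 8.07, the nearest other holding 8.39. OP cancers 3 to 6 shared slide 4, and the cause of these values was not tested.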

How the results depend on the processing

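The number of the 37 genes higher in cancers was 16 to 18 under every alternative that gave a count, and 16 to 18 when single samples were left out. The number lower, 5 as reported, was 0 under 75th-percentile scaling of the processed signal, 0 under that scaling after normexp, 0 in the authors' deposited value table, 1 with slide as a block, and 3 to 7 when single samples were left out, 3 without OR normal tissue 2. Under these scalings the median of all genes moved to -1.51, -0.80 and -0.19, and genes higher made up 17.7%, 17.3% and 39.4% of all calls, against 46.4% as reported. The median of the constitutive genes, 0.14, was 0.32 under 75th-percentile scaling after normexp, and 0.06 without LC normal tissue 1 to 0.21 without LC normal tissue 2. Among called genes, directions reversed for Psmb2 under 75th-percentile scaling after normexp (0.0147), and within slide 2 for Psmb3 (0.0095) and Psmb9 (-0.17). The differences of Psmb1, Psmb4, Psmb6, Psmb7, Psmc1, Psmc4, Psmc5, Psmd6 and Psme1, none of them called, also changed sign under some alternative. With the replicate block the counts were 16 higher and 5 lower and the constitutive median 0.11; it changed the call of Psmd10 (-0.24, adjusted p = 0.0646) and Cops3 (-0.26, adjusted p = 0.036) and of no other gene. Every obesity comparison gave 0 of 37 under each alternative with a test, although without OP cancer 6 there were 516, 45 and 214 of all genes called for OP against lean, OR and LC cancers. With slide as a block, OP against lean cancers rests on a single OP cancer and decides little. Within slides no test of counts was made. Scan day does not vary among the normal tissues, and slides 4 and 5, scanned on another day, held cancers only. An alternative chosen after seeing the data, without LC normal tissue 3 and OP cancer 6, gave 17 higher and 4 lower. Quantile scaling assumes like distributions on all arrays, and the cancers had fewer probes above background, so small falls are the least firm results. The number of arrays limits precision.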
